A study of Mus musculus with 23 samples.

Results

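The 10 genes described here are immediate early transcription factor genes (Fos, Fosb, Jun, Junb, Egr1, Egr2, Atf3 and Nr4a1) and genes of phosphatases that act back on MAPK (mitogen-activated protein kinase) signalling (Dusp1 and Dusp6). They were taken by gene symbol: 12 of the 22690 probe sets on the array carried 1 of these symbols, 2 of them for Jun, 2 for Egr2 and 1 for each other gene. All 10 genes were among the 11164 tested of 12393 genes with a symbol. The samples were gastrocnemius muscle on 23 arrays. Emerin KO (knockout) mice had 2 arrays on day 0, 3 on day 3 and 3 on day 4, lamin A/C KO mice 3 on each day, and control mice 2 on each day. Emerin and lamin A/C are proteins of the nuclear envelope, and mutations of their genes cause Emery-Dreifuss muscular dystrophy. Day 3 and day 4 were counted from an injection, made to set off degeneration and regeneration of the muscle. The labels used here do not name what was injected, nor the age or strain of the mice. Day 0 muscle was labelled as not injected in emerin KO and control mice but as 0 days after injection in lamin A/C KO mice. The titles tie the controls to the lamin A line, so emerin KO mice were set against controls that the labels do not tie to their own line. The labels do not say whether the arrays of a group came from separate animals, so p-values measure the spread between these arrays, which may be technical.

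Immediate early genes are switched on within minutes of a growth factor, a stress or an injury, without new protein synthesis, and in cultured cells their transcripts fall again soon after. Their promoters are read by serum response factor with its ETS partners and by CREB (cyclic AMP response element binding protein), which kinases of the ERK and p38 pathways phosphorylate. Fos and Jun proteins pair to form the AP-1 transcription factor, EGR proteins bind GC-rich sites, and dual-specificity phosphatases such as Dusp1 and Dusp6 remove the activating phosphates from MAPKs and so close a feedback loop. In skeletal muscle, AP-1 and EGR genes are known to respond to contraction and injury, and Nr4a1 to adrenergic stimulation and exercise.

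The signal of a probe set is the MAS5 value of the array software, on a linear scale in arbitrary units, here rescaled so that the trimmed mean of every array is 500. Differences are given as log2 differences of signal + 32 with their standard error. A difference is called where the p-value of limma, a linear model fitted over all 9 groups, adjusted by Benjamini-Hochberg over the 11164 genes, was under 0.05. The targeted genes were lower than in control muscle: Emd signal was 372 to 465, 153 to 452 and 169 to 239 in emerin KO muscle on days 0, 3 and 4, against 587 to 770 in control muscle on day 0 and 663 to 830 on days 3 and 4. Lmna was 53.0 to 109 in lamin A/C KO muscle over the 3 days, against 857 to 4119 in control muscle. The signal of Gapdh near its 3' end over that near its 5' end, a ratio that rises as RNA shortens, set some emerin KO arrays apart. It was 3.62 to 6.09 on the 3 day 3 arrays and 1.40 to 5.30 on the 3 day 4 arrays, against 0.822 to 1.64 on the other 17 arrays of the series. Muscle fibre markers were lower and macrophage markers higher on the later days than on day 0. The summed signal of 10 mature fibre markers was 55073 to 110826 on the 16 later arrays, against 217769 to 286410 on the 7 day 0 arrays, and that of 10 macrophage markers 37038 to 52479, against 5551 to 9771. Between the same days the sum of 9 myoblast and regenerating fibre markers was 25214 to 38556 later, against 11478 to 17319 on day 0, and that of 8 neutrophil markers 1743 to 5975 later, against 1048 to 1560.1 on day 0. The sums of 8 fibroblast, 8 endothelial and 3 erythroid markers overlapped between the later days and day 0. No marker of these lists was at 0 on any array, and in bulk muscle fewer cells of a type and less RNA per cell cannot be told apart.

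To show what lies just upstream of members that moved, the promoters of 5 members are printed. They are Nr4a1 and Dusp1, which fell in all 3 genotypes, Junb and Dusp6, which rose in all 3, and Fos, the founding member of the class. Each runs 5′ to 3′ on the gene's own strand, from 250 bases before to 50 bases after the transcription start in RefSeq (GRCm38.p6), with searched motifs in capitals.
Nr4a1: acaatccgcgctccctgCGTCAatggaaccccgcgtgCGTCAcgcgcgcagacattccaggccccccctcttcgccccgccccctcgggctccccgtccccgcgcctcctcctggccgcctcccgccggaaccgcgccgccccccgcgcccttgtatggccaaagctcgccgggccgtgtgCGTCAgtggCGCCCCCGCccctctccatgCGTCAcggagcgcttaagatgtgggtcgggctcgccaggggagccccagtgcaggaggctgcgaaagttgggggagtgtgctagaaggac
Dusp1: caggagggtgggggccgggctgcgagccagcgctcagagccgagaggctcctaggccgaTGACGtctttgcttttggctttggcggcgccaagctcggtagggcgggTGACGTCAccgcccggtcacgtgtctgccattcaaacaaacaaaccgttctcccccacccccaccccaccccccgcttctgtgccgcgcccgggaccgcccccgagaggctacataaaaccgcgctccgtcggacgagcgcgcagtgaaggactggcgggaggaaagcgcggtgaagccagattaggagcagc
Junb: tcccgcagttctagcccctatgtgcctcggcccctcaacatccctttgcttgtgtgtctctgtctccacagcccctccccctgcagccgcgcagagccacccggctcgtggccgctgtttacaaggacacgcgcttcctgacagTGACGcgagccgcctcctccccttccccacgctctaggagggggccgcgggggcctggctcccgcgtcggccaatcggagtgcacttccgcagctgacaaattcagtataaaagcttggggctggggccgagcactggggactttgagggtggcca
Dusp6: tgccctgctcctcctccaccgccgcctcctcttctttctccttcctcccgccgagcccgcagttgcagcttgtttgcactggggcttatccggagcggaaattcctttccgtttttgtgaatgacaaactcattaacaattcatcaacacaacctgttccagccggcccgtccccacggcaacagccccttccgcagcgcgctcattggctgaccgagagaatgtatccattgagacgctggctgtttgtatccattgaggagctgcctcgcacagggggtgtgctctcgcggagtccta
Fos: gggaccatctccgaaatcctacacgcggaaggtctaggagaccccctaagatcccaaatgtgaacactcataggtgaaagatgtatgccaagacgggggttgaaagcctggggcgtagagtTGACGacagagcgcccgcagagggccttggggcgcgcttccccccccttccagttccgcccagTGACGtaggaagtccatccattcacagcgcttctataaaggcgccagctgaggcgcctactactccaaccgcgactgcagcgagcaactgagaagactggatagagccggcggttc
The Nr4a1 window lies at chr15:101266596-101266895 on the plus strand, the Dusp1 window at chr17:26508423-26508722 on the minus strand. The Junb window lies at chr8:84978699-84978998 on the minus strand, the Dusp6 window at chr10:99262981-99263280 on the plus strand and the Fos window at chr12:85473640-85473939 on the plus strand. The motifs searched on both strands were the cyclic AMP response element TGACGTCA, its shorter core TGACG (read as CGTCA on the other strand, and contained in the full element), the AP-1 site TGANTCA, the EGR site GCGNGGGCG and the CArG box of serum response factor.

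The core TGACG was found in windows of 7 of the 9 members other than Egr1 (Fos, Fosb, Junb, Atf3, Egr2, Nr4a1 and Dusp1), against 20.8% of all 32851 mouse promoter windows of the same length. The Nr4a1 window holds 4 copies of it. The Dusp1 window holds the full element at positions -143 to -136 from the start, which 1.79% of all windows hold, and a separate core at positions -191 to -187. An EGR site was found in the Nr4a1 and Fosb windows (5.55% of all windows) and a CArG box in 4 of 5 Egr2 windows (1.63% of all windows). The AP-1 letters were in none of the members' windows searched (7.81% of all windows). Egr2 had 5 windows against 1 for each other member searched. Egr1 was not searched, nor was any sequence further upstream than these windows, so a motif not found here may lie outside them. The Jun and Dusp6 windows held none of the motifs searched. Members that rose and members that fell both hold the core, so these letters do not separate them, and a match is a stretch of sequence, not a measured binding site.

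After day 0 the members moved in opposite directions within each genotype. Junb, which codes for an AP-1 partner of Fos, and Dusp6, the phosphatase of ERK, rose in all 3 genotypes on both later days, while Nr4a1, an orphan nuclear receptor, and Dusp1, a nuclear phosphatase of p38, JNK and ERK, fell in all 3 on both days. Egr1 rose in both knockouts and Atf3 in emerin KO and control muscle; Fosb was not called in any of the 6 comparisons. Between day 3 and day 0, 5 members rose and 2 fell in emerin KO muscle, where 23.9% of all genes rose and 22.2% fell. In lamin A/C KO muscle 4 rose and 2 fell (all genes 23.4% and 19.6%), and in control muscle 3 rose and 2 fell (all genes 20.1% and 14.2%). Between day 4 and day 0, 6 rose and 2 fell in emerin KO muscle (all genes 23.5% and 20.8%). On that day 4 rose and 2 fell in lamin A/C KO muscle (all genes 21% and 18.2%), and 3 rose and 2 fell in control muscle (all genes 19.5% and 14.3%). The share of members that fell, 2 of 10, was thus close to that of all genes in each comparison. The share that rose stood furthest above that of all genes in emerin KO muscle, but these counts do not rank the genotypes. Control muscle had 2 arrays on each day, and its Fos and Egr1 differences became calls without control day 0 replicate 2. In emerin KO muscle the Egr1 and Egr2 calls on day 3 were lost with the Gapdh ratio as a covariate. In control muscle 3 of 10 rose beside 20.1% and 19.5% of all genes, which for 10 members is near the background. The median log2 difference of the 10 members was 1.07 in emerin KO, 0.51 in lamin A/C KO and 0.65 in control muscle for day 3 minus day 0, beside -0.08, -0.08 and 0.09 over all genes tested. For day 4 minus day 0 the medians were 1.38, 0.57 and 0.90, beside -0.06, -0.08 and 0.03. On both days the lamin A/C KO median was the lowest. The fibre, macrophage, myoblast and neutrophil marker sums above moved between the same days, and their part in the members' changes was not tested.

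**Figure D1:**
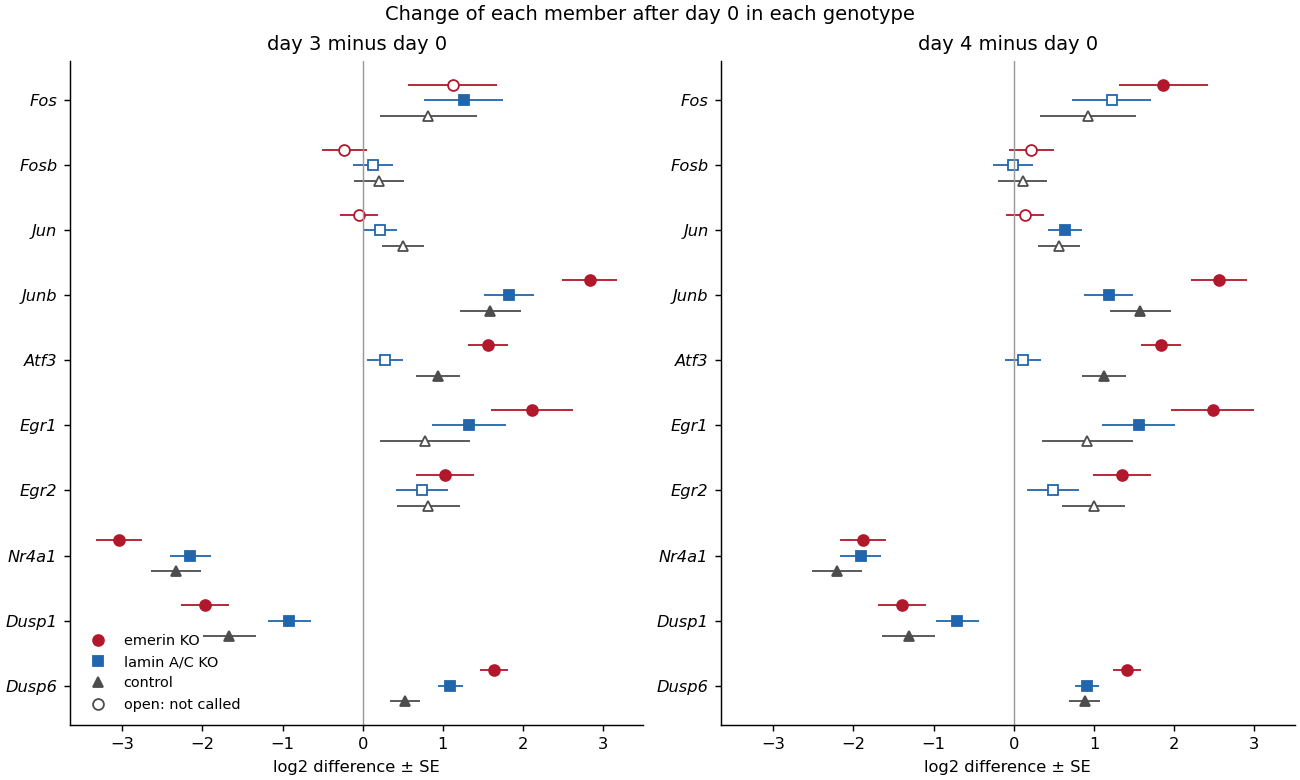
Log2 difference of each member between day 3 (left) or day 4 (right) and day 0, with its standard error, in emerin KO (circles), lamin A/C KO (squares) and control muscle (triangles); filled symbols are called and open ones are not. Nr4a1 and Dusp1 lie left of 0 and Junb and Dusp6 right of 0 in every genotype, with the Nr4a1 difference on day 3 at -3.04 in emerin KO, -2.15 in lamin A/C KO and -2.33 in control muscle.

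Among the AP-1 genes, Junb had the clearest rise. Its signal in emerin KO muscle was 341 and 125 on day 0, 1650.5, 1929 and 1506 on day 3, and 1299, 915 and 2256 on day 4. In lamin A/C KO muscle it was 382, 437 and 513 on day 0, 1555, 1344 and 2131 on day 3, and 861, 954 and 1373 on day 4. Control arrays gave 225 and 431 on day 0, 1208 and 836 on day 3, and 889 and 1120.2 on day 4. Every later array lay above every day 0 array of the series, the highest of which was 513. The log2 difference between day 3 and day 0 was 2.83 ± 0.35 (adjusted p = 5.44e-07) in emerin KO, 1.83 ± 0.31 (adjusted p = 4.65e-05) in lamin A/C KO and 1.59 ± 0.38 (adjusted p = 0.00211) in control muscle. These are 7.11-fold, 3.54-fold and 3.01-fold. Between day 4 and day 0 it was 2.56 ± 0.35 (adjusted p = 2.58e-06), 1.18 ± 0.31 (adjusted p = 0.00411) and 1.58 ± 0.38 (adjusted p = 0.00238) in emerin KO, lamin A/C KO and control muscle in that order. Control day 0 replicate 1 was the lower of its pair, and without it the control call was lost on day 3, at 1.16 (adjusted p = 0.0615), and on day 4, at 1.15 (adjusted p = 0.0654).

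Fos, the AP-1 subunit most often used as a marker of recent stimulation, was far more uneven. In emerin KO muscle its signal was 757 and 179.5 on day 0, 1229, 656 and 778 on day 3, and 1682, 1471 and 1246 on day 4. Lamin A/C KO arrays gave 839.9, 449 and 695 on day 0, 1451, 1049 and 2569.7 on day 3, and 1065, 1235 and 2761 on day 4. In control muscle it was 254 and 1241 on day 0, 1482 and 713 on day 3, and 1139 and 1087 on day 4. The day 0 pairs of emerin KO and control muscle were wide apart, with 1 array in each within the day 3 range of its genotype and the other below it. Fos was called on day 4 in emerin KO muscle at 1.86 ± 0.55 (adjusted p = 0.00833) and on day 3 in lamin A/C KO muscle at 1.26 ± 0.49 (adjusted p = 0.044). The emerin KO call was lost without day 0 replicate 2, at 0.91 (adjusted p = 0.287). The day 3 difference of emerin KO muscle, 1.12 ± 0.55 (adjusted p = 0.103), became a call without day 0 replicate 1, at 2.07 (adjusted p = 0.0107). The lamin A/C KO call was lost without day 0 replicates 2 or 3 or day 3 replicates 1 or 3, down to 0.91 (adjusted p = 0.206) without day 3 replicate 3, and under quantile normalization, at 1.18 (adjusted p = 0.07). On day 4 Fos in lamin A/C KO muscle was higher on all 3 arrays than on any day 0 array, at 1.22 ± 0.49 (adjusted p = 0.054), short of a call. It was called without day 4 replicate 1 at 1.48 (adjusted p = 0.044).

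The control comparison of Fos turned on 1 array. With both control day 0 arrays, the log2 difference was 0.82 ± 0.60 (adjusted p = 0.339) on day 3 and 0.92 ± 0.60 (adjusted p = 0.269) on day 4. Without control day 0 replicate 2, which had a signal of 1241 against 254 on replicate 1, it was 1.89 (adjusted p = 0.0291) and 2.0 (adjusted p = 0.0226), both calls. Without replicate 1 it was -0.26 and -0.15. The size and the sign of the control difference thus rest on which day 0 array is kept.

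Jun and Fosb, the remaining AP-1 subunits, were called in 1 and 0 of the 6 comparisons of a later day with day 0. Jun signal in emerin KO muscle was 1322 and 2214 on day 0, 1715, 1558 and 1694 on day 3, and 1670.4, 2567 and 1581 on day 4. The lamin A/C KO values were 1106, 1020.4 and 1557 on day 0, 1222, 1466 and 1570.0 on day 3, and 1550.0, 2207 and 2019 on day 4. The control values were 1021 and 1474 on day 0, 1980.1 and 1555 on day 3, and 1717 and 1948 on day 4. The groups overlapped in emerin KO and lamin A/C KO muscle, while both later control pairs lay above the day 0 pair without a call, at 0.51 ± 0.26 (adjusted p = 0.149) and 0.56 ± 0.26 (adjusted p = 0.105). The Jun call was on day 4 against day 0 in lamin A/C KO muscle, at 0.64 ± 0.21 (adjusted p = 0.0194). That call was lost without day 0 replicate 1, at 0.58 (adjusted p = 0.0682), and without day 0 replicate 2, at 0.53 (adjusted p = 0.0935). It was also lost without day 4 replicate 2, at 0.54 (adjusted p = 0.0835), and without day 4 replicate 3, at 0.60 (adjusted p = 0.0622). The dimmer Jun probe set had signals of 817 to 1487 on the later arrays and 806 to 1438 on the day 0 arrays, and gave 0.39 ± 0.18 (adjusted p = 0.109) in the same comparison. In control muscle the dimmer probe set gave 0.28 ± 0.22 (adjusted p = 0.387) on day 3 and 0.09 ± 0.22 (adjusted p = 0.817) on day 4 against day 0. Its later control arrays (1341 and 1209 on day 3, 1221 and 1005 on day 4) overlapped its day 0 pair (862 and 1252).

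Fosb signal was 126 to 303 on the 16 later arrays and 139.8 to 296 on the 7 day 0 arrays, so the later arrays reached both below and above the day 0 range. In emerin KO muscle the 3 day 3 arrays (205, 179 and 199) lay below both day 0 arrays (213 and 255), and the 3 day 4 arrays (260.3, 303 and 267) above them, at log2 differences of -0.23 ± 0.28 (adjusted p = 0.54) and 0.22 ± 0.28 (adjusted p = 0.56), neither a call. The 95% confidence interval of the day 4 difference was -0.37 to 0.80.

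Atf3, a stress-induced member of the ATF/CREB family that can pair with Jun proteins, was spread between genotypes mainly on day 0. Its signal in emerin KO muscle was 163 and 108 on day 0, 508, 514 and 356 on day 3, and 609, 495 and 572 on day 4. In lamin A/C KO muscle it was 414, 455 and 344 on day 0, 460.2, 463 and 568 on day 3, and 496, 294 and 573 on day 4. Control arrays gave 219.9 and 197 on day 0, 565 and 323 on day 3, and 470.3 and 515 on day 4. The day 0 arrays formed 3 ranges that did not overlap, lowest in emerin KO and highest in lamin A/C KO muscle, whereas the later arrays of the 3 genotypes overlapped. On day 0 Atf3 was not called in either knockout against control. Lamin A/C KO day 0 muscle was labelled as 0 days after injection and the others as not injected, so genotype and this label cannot be told apart there. Atf3 rose on day 3 against day 0 by 1.56 ± 0.25 (adjusted p = 2.07e-05) in emerin KO muscle and by 0.94 ± 0.27 (adjusted p = 0.00991) in control muscle. On day 4 it rose by 1.84 ± 0.25 (adjusted p = 2.79e-06) in emerin KO and 1.13 ± 0.27 (adjusted p = 0.00264) in control muscle. In lamin A/C KO muscle the difference was 0.28 ± 0.22 (adjusted p = 0.335) on day 3, with all 3 arrays just above the day 0 range, and 0.12 on day 4, with overlapping arrays. The control call on day 3 was lost without control day 3 replicate 1, at 0.56 (adjusted p = 0.217), and without control day 0 replicate 2, at 0.87 (adjusted p = 0.0644).

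Egr1, the zinc finger factor named early growth response 1, was called in both knockouts. In emerin KO muscle its signal was 1020.4 and 435 on day 0, 3165, 3316 and 2562 on day 3, and 3817, 3109.7 and 4907 on day 4. Lamin A/C KO arrays gave 669, 830.1 and 1120.3 on day 0, 1846, 1770.0 and 3213 on day 3, and 1888, 2357 and 3821 on day 4. In control muscle it was 460.2 and 3086 on day 0, 2895 and 1502 on day 3, and 1767 and 3009.6 on day 4. All later arrays of either knockout lay above its day 0 arrays, but control day 0 replicate 2, at 3086, was above every later control array. The rise on day 3 against day 0 was 2.11 ± 0.51 (adjusted p = 0.00174) in emerin KO and 1.33 ± 0.46 (adjusted p = 0.0237) in lamin A/C KO muscle. On day 4 it was 2.48 ± 0.51 (adjusted p = 4.07e-04) in emerin KO and 1.55 ± 0.46 (adjusted p = 0.00989) in lamin A/C KO muscle. In control muscle it was 0.77 ± 0.56 (adjusted p = 0.331) on day 3 and 0.92 ± 0.56 (adjusted p = 0.237) on day 4. Without control day 0 replicate 2 it was 2.11 (adjusted p = 0.00235) and 2.25 (adjusted p = 0.00149). Without replicate 1 it was -0.56 and -0.41. The same control array was the high one for Fos and Egr1. The emerin KO call on day 3 was lost without day 0 replicate 2, at 1.52 (adjusted p = 0.0623). The lamin A/C KO call on day 3 was lost without any of 3 arrays (day 0 replicates 1 and 2 and day 3 replicate 3), down to 1.05 (adjusted p = 0.117), and on day 4 without day 4 replicate 3, at 1.27 (adjusted p = 0.0607).

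Egr2, its close relative and known for its role in Schwann cell myelination, gave dimmer signals. Emerin KO arrays gave 86.1 and 131 on day 0, 298, 192 and 275 on day 3, and 280.3, 342 and 344 on day 4. Lamin A/C KO arrays gave 173, 157 and 278 on day 0, 245, 294 and 585 on day 3, and 189, 241 and 519 on day 4. Control arrays gave 127 and 165 on day 0, 389 and 200.1 on day 3, and 327 and 316 on day 4. Egr2 rose in emerin KO muscle, by 1.03 ± 0.36 (adjusted p = 0.0231) on day 3 and 1.35 ± 0.36 (adjusted p = 0.00393) on day 4 against day 0, with no overlap of arrays. In control muscle the later arrays also lay above the day 0 pair, at 0.82 ± 0.39 (adjusted p = 0.121) and 1.0 ± 0.39 (adjusted p = 0.0561), without a call. Arrays of lamin A/C KO muscle overlapped on day 3 at 0.74 ± 0.32 (adjusted p = 0.0705). The emerin KO call on day 3 was lost without day 0 replicate 1, at 0.79 (adjusted p = 0.171), without day 3 replicate 1, at 0.92 (adjusted p = 0.0726), and without day 3 replicate 3, at 0.97 (adjusted p = 0.0507). The day 4 call was lost without day 0 replicate 1, at 1.11 (adjusted p = 0.0553). The day 3 difference of lamin A/C KO muscle became a call without day 0 replicate 3, at 0.96 (adjusted p = 0.0352), or day 3 replicate 1, at 0.97 (adjusted p = 0.0332). A dimmer Egr2 probe set, with signals of 49.7 to 312 on the later days and 5.15 to 119 on day 0, gave 1.83 ± 0.60 (adjusted p = 0.0163) and 2.13 ± 0.60 (adjusted p = 0.00648) in emerin KO muscle, the same direction as the brighter one.

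**Figure D2:**
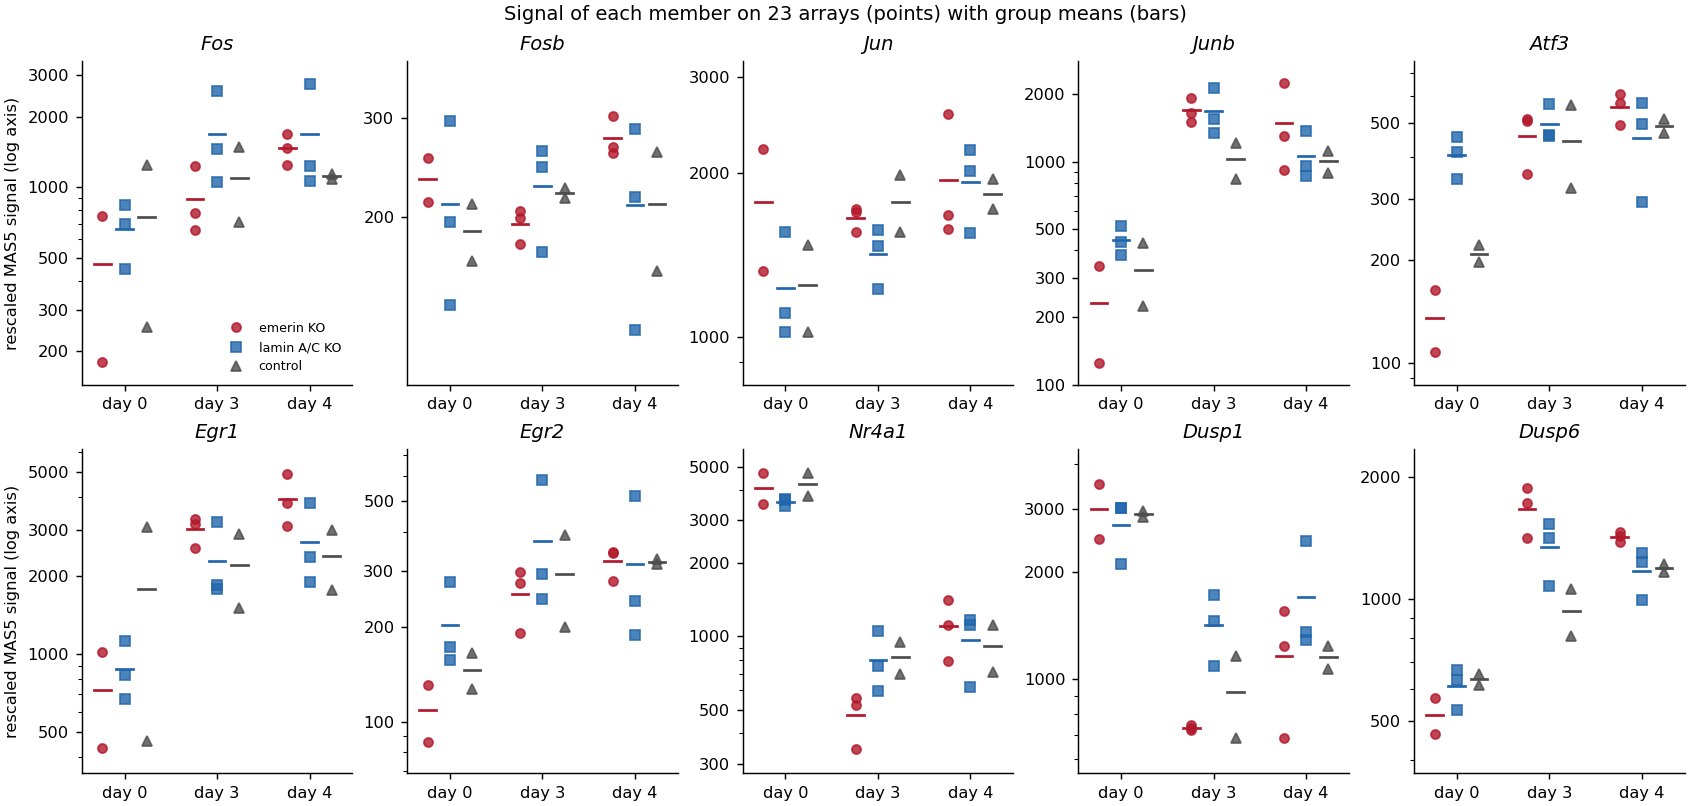
Rescaled MAS5 signal of the brightest probe set of each member on 23 arrays, on log axes of their own, by day, with emerin KO (circles), lamin A/C KO (squares) and control (triangles) side by side; points are arrays and bars are group means. The Nr4a1 and Dusp1 panels drop after day 0, the Junb and Dusp6 panels climb, and the Fos and Egr1 panels show the wide control pair on day 0, with Egr1 at 460.2 and 3086.

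Nr4a1, which takes part in the metabolic response of muscle to adrenergic signals, had the largest fall of the 10 members in each genotype. Its signal in emerin KO muscle was 4680.1 and 3516 on day 0, 522, 343 and 560.2 on day 3, and 1112, 1417 and 792 on day 4. The lamin A/C KO values were 3669, 3634 and 3432 on day 0, 1053, 598 and 753 on day 3, and 618, 1166 and 1109.6 on day 4. The control values were 4714 and 3798 on day 0, 949 and 702 on day 3, and 1115 and 715 on day 4. The highest later array, at 1417, lay far below the lowest day 0 array, at 3432, so the days did not overlap in any genotype. The log2 difference between day 3 and day 0 was -3.04 ± 0.28 (adjusted p = 1.08e-08) in emerin KO, -2.15 ± 0.25 (adjusted p = 4.22e-07) in lamin A/C KO and -2.33 ± 0.31 (adjusted p = 3.78e-06) in control muscle. The day 3 level was thus 0.122, 0.225 and 0.199 times the day 0 level. On day 4 it was -1.88 ± 0.28 (adjusted p = 1.08e-05), -1.91 ± 0.25 (adjusted p = 3.06e-06) and -2.20 ± 0.31 (adjusted p = 8.71e-06) in the same order of genotypes. These 6 falls remained calls with any array left out and under every other setting tried, over which the emerin KO difference on day 3 was -3.12 to -1.87. The window of the Nr4a1 promoter shown above is the one with 4 copies of the TGACG core.

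Dusp1 fell beside it, by less. In emerin KO muscle its signal was 2469 and 3527 on day 0, 731, 744 and 719 on day 3, and 1241, 1557 and 684 on day 4. In lamin A/C KO muscle it was 3010.3, 2105 and 3009.6 on day 0, 1458, 1087 and 1726 on day 3, and 1357, 1289 and 2439 on day 4. Control arrays gave 2959.5 and 2844 on day 0, 1163 and 685 on day 3, and 1071 and 1237 on day 4. On day 3 every array lay below the day 0 arrays of its genotype, and the 3 emerin KO arrays were close to each other and low. On day 4, lamin A/C KO replicate 3 reached into its day 0 range. The difference on day 3 was -1.97 ± 0.30 (adjusted p = 1.07e-05) in emerin KO, -0.92 ± 0.27 (adjusted p = 0.008) in lamin A/C KO and -1.66 ± 0.33 (adjusted p = 3.49e-04) in control muscle. On day 4 it was -1.40 ± 0.30 (adjusted p = 5.58e-04), -0.71 ± 0.27 (adjusted p = 0.041) and -1.31 ± 0.33 (adjusted p = 0.00334). The lamin A/C KO call on day 4 was lost without day 0 replicates 1 or 3 or day 4 replicates 1 or 2, up to -0.55 (adjusted p = 0.163) without day 4 replicate 2, and with every array scaled to the same median, at -0.69 (adjusted p = 0.0601). Dropping the filter on low signal (adjusted p = 0.0502) or the intensity trend (adjusted p = 0.0629) also lost it, at -0.71 each. The day 3 call was lost without day 3 replicate 2, at -0.74 (adjusted p = 0.0535).

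Dusp6, a cytoplasmic phosphatase of ERK whose transcription ERK signalling is known to raise, ran the other way. Its signal in emerin KO muscle was 570.4 and 465 on day 0, 1729.6, 1417 and 1879 on day 3, and 1381, 1429.8 and 1462 on day 4. Lamin A/C KO arrays gave 531, 668 and 629 on day 0, 1076, 1533 and 1417 on day 3, and 997, 1236 and 1298 on day 4. In control muscle it was 615 and 652 on day 0, 1061 and 809 on day 3, and 1164 and 1223 on day 4. The lowest later array of the series, at 809, lay above the highest day 0 array, at 668. On day 3 Dusp6 rose by 1.63 ± 0.17 (adjusted p = 6.43e-08) in emerin KO, 1.09 ± 0.15 (adjusted p = 4.73e-06) in lamin A/C KO and 0.53 ± 0.19 (adjusted p = 0.0339) in control muscle. On day 4 it rose by 1.41 ± 0.17 (adjusted p = 6.10e-07), 0.91 ± 0.15 (adjusted p = 5.55e-05) and 0.88 ± 0.19 (adjusted p = 8.41e-04) in the same order. The control rise on day 3 was the smallest of the 6. Its call was lost with arrays scaled to the same median, at 0.40 (adjusted p = 0.14), and under quantile normalization, at 0.43 (adjusted p = 0.102). A fit of only the compared groups lost the call too, at 0.53 (adjusted p = 0.0598). It was also lost without control day 0 replicate 1, at 0.49 (adjusted p = 0.148), control day 0 replicate 2, at 0.57 (adjusted p = 0.0823), or control day 3 replicate 1, at 0.34 (adjusted p = 0.323). Of the 2 phosphatase genes, one thus fell and the other rose after day 0 in each genotype.

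Between day 4 and day 3, 1 member was called in 30 tests. It was Nr4a1 in emerin KO muscle, 1112, 1417 and 792 on day 4 against 522, 343 and 560.2 on day 3. The log2 difference was 1.16 ± 0.25 (adjusted p = 0.0222), in a comparison where 1.17% of all genes were called. It was lost without emerin KO day 3 replicate 2, at 0.95 (adjusted p = 0.139), day 4 replicate 1, at 1.14 (adjusted p = 0.0999), or day 4 replicate 2, at 0.97 (adjusted p = 0.125). With the log2 Gapdh ratio as a covariate the call was lost at 0.73 (adjusted p = 0.198). Leaving out the intensity trend (adjusted p = 0.0603) or all other groups (adjusted p = 0.0959) also lost it, at 1.16 each. The ratio was 3.62 to 6.09 on these day 3 arrays and 1.40 to 5.30 on the day 4 arrays. Its part in this difference was not tested further. Of 10 members in lamin A/C KO muscle, limma called 0, and 0 had an unadjusted p under 0.05, where 2.04% of all genes were called. In control muscle the counts were also 0 and 0, where 0.0448% of all genes were called.

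Set against control muscle on the same day, few members differed in either knockout. In emerin KO muscle, Dusp6 was higher on day 3, the only call among 30 tests of members over the 3 days, and in lamin A/C KO muscle there was none among 30. By limma, 0 of 10 members were called on day 0, 1 on day 3 and 0 on day 4 in emerin KO against control muscle, where 3.26%, 16.3% and 5.87% of all genes were called. The counts of lamin A/C KO against control muscle were 0, 0 and 0, where 0.896%, 0.0269% and 0.0448% of all genes were called. At an unadjusted p under 0.05 there were 0, 3 and 0 members in emerin KO and 1, 2 and 0 in lamin A/C KO muscle. Arrays did not overlap for 3, 4 and 3 members on days 0, 3 and 4 in emerin KO against control muscle, beside 44.1%, 41.3% and 37.2% of all genes. They did not overlap for 2, 2 and 1 in lamin A/C KO against control muscle, beside 27.2%, 30.9% and 22.6%. These shares were near or below the background. The comparisons of both knockouts share the control arrays.

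The precision of these differences varied among members. The 95% confidence interval of a difference from control reached 0.36 to 0.39 on the log2 scale to either side for Dusp6, the most even member between replicates. For Fos, the least even, it reached 1.15 to 1.25, so a Fos difference of 2-fold lies inside the interval on each day in lamin A/C KO muscle. For lamin A/C KO minus control the Fos intervals of days 0, 3 and 4 were -0.99 to 1.30, -0.55 to 1.74 and -0.69 to 1.60. The Dusp6 interval was -0.42 to 0.30, 0.15 to 0.86 and -0.39 to 0.33. A missing call does not show that the genotypes were alike.

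Dusp6 on day 3 was 1729.6, 1417 and 1879 in emerin KO muscle and 1076, 1533 and 1417 in lamin A/C KO muscle, against 1061 and 809 in control muscle. Both knockouts lay wholly above the control pair. The log2 difference from control was 0.82 ± 0.17 (adjusted p = 0.00249), 1.77-fold, in emerin KO muscle, and 0.50 ± 0.17 (adjusted p = 0.513), 1.42-fold, in lamin A/C KO muscle. The emerin KO call was lost without control day 3 replicate 2, at 0.63 (adjusted p = 0.0758). On day 0 the emerin KO pair (570.4 and 465) lay below the control pair (615 and 652), at a log2 difference of -0.28 ± 0.19 (adjusted p = 0.5). On day 4 the emerin KO arrays (1381, 1429.8 and 1462) lay above the control arrays (1164 and 1223), at 0.25 ± 0.17 (adjusted p = 0.443).

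The rise of Dusp6 between day 0 and day 3 was larger in emerin KO than in control muscle by 1.11 ± 0.26 (adjusted p = 0.0234) on the log2 scale, the single call among 40 interaction tests of members. The call was lost without any of 5 of the 9 arrays compared. Without emerin KO day 0 replicate 2 it was 0.97 (adjusted p = 0.108) and without emerin KO day 3 replicate 1 1.08 (adjusted p = 0.0508). Without control day 0 replicate 1 it was 1.15 (adjusted p = 0.0646), without control day 0 replicate 2 1.07 (adjusted p = 0.0871), and without control day 3 replicate 2 0.92 (adjusted p = 0.139). Of all genes, 2.64% were called in this interaction, 0.573% in that of emerin KO with control to day 4, and 0.17% and 0.206% in those of lamin A/C KO with control to days 3 and 4. Among the interactions that were not called, that of Junb to day 3 in emerin KO was 1.24 ± 0.51 (adjusted p = 0.209), that of Egr1 to day 4 in emerin KO 1.56 ± 0.76 (adjusted p = 0.419), and that of Atf3 to day 4 in lamin A/C KO -1.01 ± 0.35 (adjusted p = 0.412). In limma, 0 members were called in the emerin KO interaction to day 4 and 0 and 0 in those of lamin A/C KO, with 0, 1 and 1 at an unadjusted p under 0.05.

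**Figure D3:**
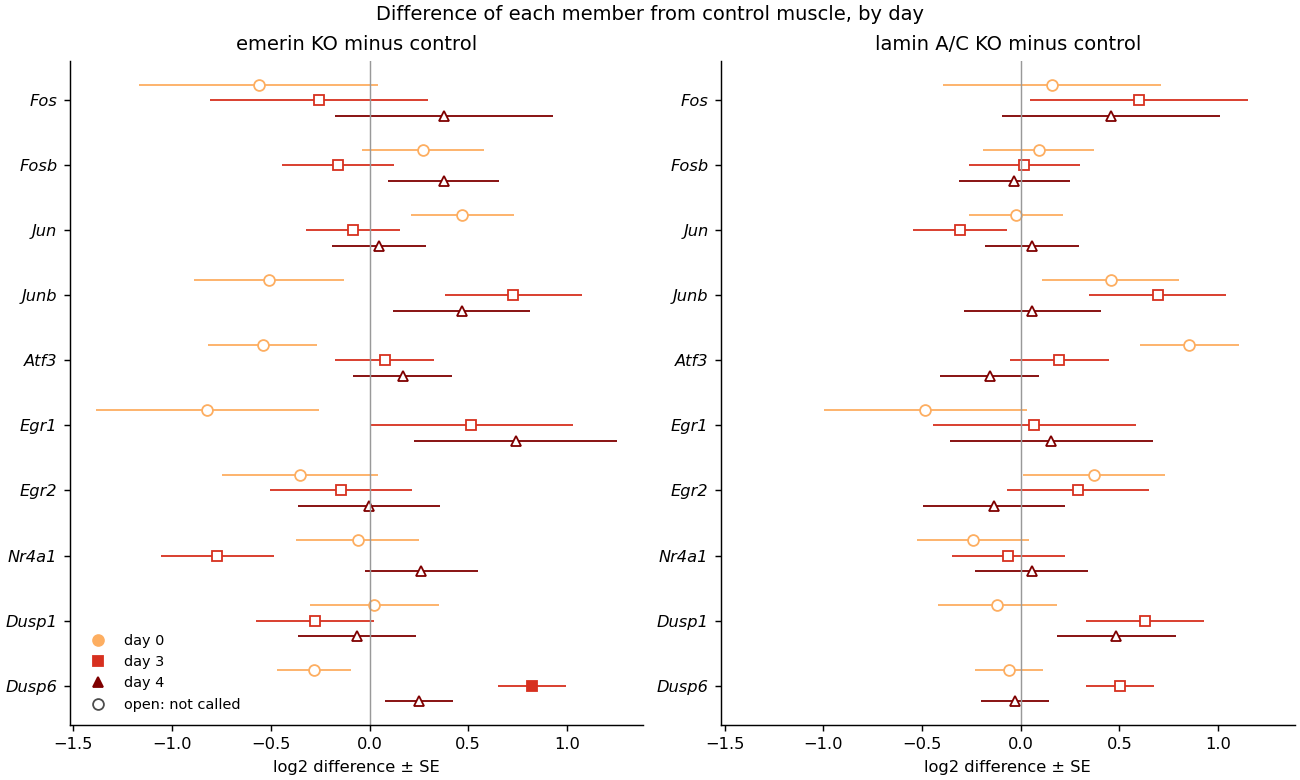
Log2 difference of each member, with its standard error, between emerin KO (left) or lamin A/C KO (right) and control muscle on day 0 (circles), day 3 (squares) and day 4 (triangles); the filled symbol is called and open ones are not. Dusp6 in emerin KO muscle on day 3, at 0.82, is the single filled symbol, and the Atf3 differences on day 0 lie on opposite sides of 0, at -0.54 in emerin KO and 0.85 in lamin A/C KO muscle.

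The Gapdh ratio moved with the same comparison. It was 3.62 to 6.09 on the emerin KO day 3 arrays, against 0.957 and 0.976 on the control day 3 arrays, so on that day genotype and ratio cannot be told apart by these arrays. With the log2 ratio as a covariate the Dusp6 difference on day 3 was 0.92 (adjusted p = 0.332) and its interaction 1.19 (adjusted p = 0.238), as large as without it but no longer calls. Dusp6 in lamin A/C KO muscle on day 3 was also above both control arrays on every array, without a call. The ratio there, 1.21 to 1.64, was likewise above that of both control arrays, so the 2 cannot be told apart in that group either. With the same covariate Junb, Egr1 and Nr4a1 changed sign in emerin KO minus control on day 3, to -0.42, -0.42 and 0.51, none of them a call with or without it. It also lowered the number of members called on day 3 against day 0, to 4 in emerin KO and 3 in lamin A/C KO muscle. The calls lost in emerin KO muscle were Egr1 (1.26), Egr2 (0.87) and Dusp1 (-1.25). Those lost in lamin A/C KO muscle were Fos (1.37), Egr1 (1.07) and Dusp1 (-0.70), each in the same direction as without it. On day 4 against day 0 it left 6 of the 8 calls in emerin KO muscle, with Egr2 at 1.25 (adjusted p = 0.0626) and Dusp1 at -0.94 (adjusted p = 0.0684) no longer called. The 5 emerin KO arrays with a ratio over 2 include all 3 of day 3, so the day 3 comparisons cannot be repeated without them, and the part of the ratio in those differences was not tested further. Without them, day 4 against day 0 in emerin KO rested on 1 day 4 array, which is assumed to vary like the arrays of the other groups. Calls were lost for Fos, at 1.88 (adjusted p = 0.0779), and Dusp1, at -0.91 (adjusted p = 0.0651). With 3 day 4 arrays the Fos difference was 1.86.

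**Figure D4:**
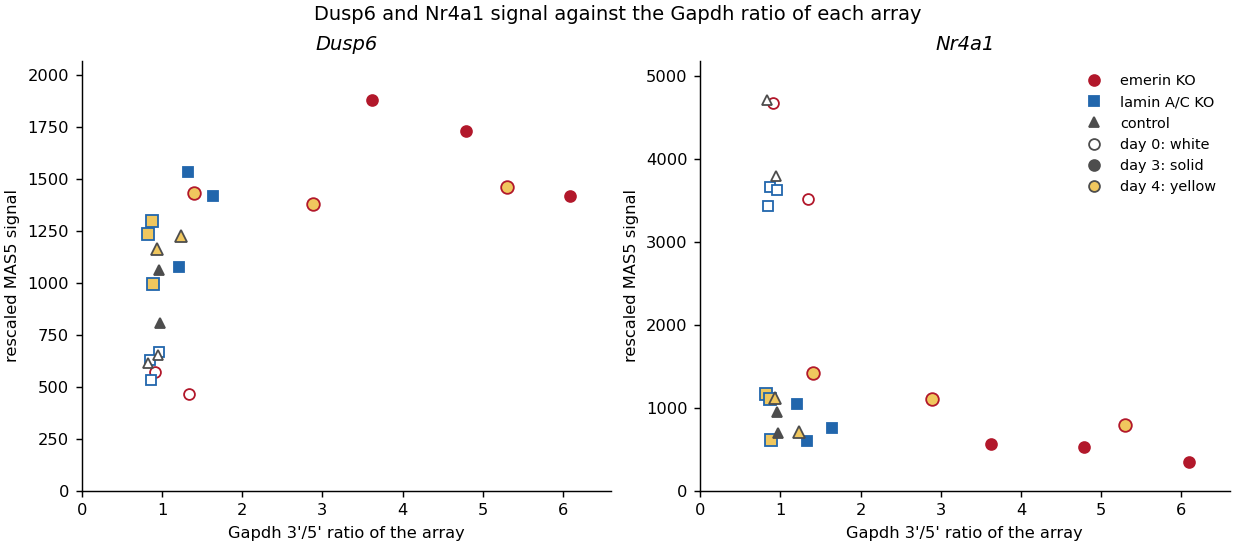
Rescaled MAS5 signal of Dusp6 (left) and Nr4a1 (right) on 23 arrays against the Gapdh 3'/5' ratio of the array; circles are emerin KO, squares lamin A/C KO and triangles control, with white for day 0, solid colour for day 3 and yellow for day 4. The 5 arrays with a ratio over 2 are all emerin KO arrays of days 3 and 4. Among them Dusp6 was 1381 to 1879 and Nr4a1 343 to 1112. In order of rising ratio, Nr4a1 in emerin KO muscle was 560.2, 522 and 343 on day 3 and 1417, 1112 and 792 on day 4. In the same order Dusp6 was 1879, 1729.6 and 1417 on day 3 and 1429.8, 1381 and 1462 on day 4. The part of the ratio in these orders was not tested.

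Of the members that were not called against control, Nr4a1 came nearest, on day 3: 522, 343 and 560.2 in emerin KO against 949 and 702 in control muscle, at -0.77 ± 0.28 (adjusted p = 0.0702). Junb on day 3 was above the control pair (1208 and 836) on all 3 arrays of emerin KO (1650.5, 1929 and 1506) and of lamin A/C KO muscle (1555, 1344 and 2131), at 0.73 ± 0.35 (adjusted p = 0.173) and 0.69 ± 0.35 (adjusted p = 0.698). Dusp1 in lamin A/C KO muscle was 1458, 1087 and 1726 on day 3, against 1163 and 685 in control muscle, which overlapped, at 0.63 ± 0.30 (adjusted p = 0.68). On day 0 the Atf3 difference was -0.54 ± 0.27 (adjusted p = 0.344) in emerin KO and 0.85 ± 0.25 (adjusted p = 0.135) in lamin A/C KO muscle, with no overlap in either.

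The knockouts were also set against each other, a comparison added after their levels had been seen. Atf3 on day 0 was 163 and 108 in emerin KO against 414, 455 and 344 in lamin A/C KO muscle, a called difference of -1.40 ± 0.25 (adjusted p = 0.00113), which kept its call with any array left out. The labels name these day 0 muscles differently, as given above. Dusp1 on day 3 was 731, 744 and 719 in emerin KO against 1458, 1087 and 1726 in lamin A/C KO muscle, also called, at -0.91 ± 0.27 (adjusted p = 0.0347). That call was lost without any of the 3 emerin KO arrays and without lamin A/C KO replicates 1 or 3, over which the difference was -0.92 to -0.76. With the Gapdh ratio as a covariate it was -0.30 (adjusted p = 0.93). Junb on day 0, 341 and 125 in emerin KO against 382, 437 and 513 in lamin A/C KO muscle, gave -0.97 ± 0.35 (adjusted p = 0.108) without a call, and -1.59 (adjusted p = 0.0132) without emerin KO replicate 1. On day 4, 0 of 10 members were called by limma (Dusp1 without emerin KO day 4 replicate 2, at -0.79 (adjusted p = 0.0498)) and 0 had an unadjusted p under 0.05. Of all genes, 6.3%, 9.95% and 16.4% were called on days 0, 3 and 4.

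The members differed in how evenly replicates gave them. The pooled standard deviation within groups was 0.73 on the log2 scale for Fos and 0.68 for Egr1, at the 98.1 and 97.1 percentiles of the 11164 genes, against 0.18 for Dusp6, at the 19.1 percentile, with the others between 0.29 and 0.44. Some arrays were high for many members at once, which was not set beside the same count over all genes. Control day 3 replicate 1 was the higher of its pair for 9 of 10 members, lamin A/C KO day 3 replicate 3 the highest of its group for 8, and lamin A/C KO day 4 replicate 3 for 8. Control replicate 2 was the higher of its pair for 7 members on day 0 and for 7 on day 4. Other groups were more even. The 3 emerin KO day 3 arrays were the highest of their group for 4, 4 and 2 members. Those of emerin KO day 4 were so for 2, 4 and 4, and those of lamin A/C KO day 0 for 3, 3 and 4.

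The order of the 9 groups held beyond the spread of their arrays for few neighbours. Ranked by mean, neighbouring groups had arrays that did not overlap at 2 of 8 steps for Nr4a1 and Atf3, at 1 of 8 for Fos, Fosb, Junb and Dusp6, and at 0 of 8 for Jun, Egr1, Egr2 and Dusp1. Nr4a1 averaged 4256 ± 648 (SD, n = 2) in its highest group, control day 0, and 475 ± 116 (SD, n = 3) in its lowest, emerin KO day 3. Dusp6 averaged 1675 ± 235 in emerin KO muscle on day 3 (SD, n = 3), its highest group, and 518 ± 74.8 in emerin KO muscle on day 0 (SD, n = 2), its lowest. Junb was highest in emerin KO on day 3 at 1695 ± 215 and lowest in emerin KO on day 0 at 233 ± 153. Emerin KO day 0 was also the lowest group for Fos, Atf3, Egr1 and Egr2. Egr1 there averaged 728 ± 414 and Atf3 135 ± 39.0 (SD, n = 2 each).

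The other genes of the pathway split by kind. Of 26 listed immediate early genes that are not transcription factors, 25 were tested. On day 3 against day 0, 13 rose and 5 fell in emerin KO (all genes 23.9% and 22.2%), 15 and 3 in lamin A/C KO (23.4% and 19.6%), and 13 and 2 in control muscle (20.1% and 14.2%). Their median log2 difference was 0.88, 1.08 and 1.05 in emerin KO, lamin A/C KO and control muscle, beside -0.08, -0.08 and 0.09 over all genes. Genes are named where they are among the 4 largest called differences of their list in a comparison, so a genotype left out for a gene says nothing of it. Pim1, a survival kinase downstream of cytokine receptors, rose by 2.79 ± 0.40 (adjusted p = 4.72e-06) in emerin KO, 1.77 ± 0.36 (adjusted p = 3.14e-04) in lamin A/C KO and 3.03 ± 0.44 (adjusted p = 9.70e-06) in control muscle. Zfp36, whose protein speeds the decay of cytokine mRNAs, rose by 2.02 ± 0.40 (adjusted p = 2.13e-04) in emerin KO and 1.87 ± 0.36 (adjusted p = 1.75e-04) in lamin A/C KO muscle. Socs3, an inhibitor of cytokine signalling, rose by 2.15 ± 0.20 (adjusted p = 1.45e-08) in lamin A/C KO and 1.80 ± 0.25 (adjusted p = 5.32e-06) in control muscle. Cited2, a transcriptional co-regulator, and Sgk1, a serum- and glucocorticoid-induced kinase, fell in emerin KO muscle, at -2.65 ± 0.39 (adjusted p = 5.81e-06) and -2.32 ± 0.32 (adjusted p = 2.75e-06). On day 4 against day 0, 13 rose and 4 fell in emerin KO (all genes 23.5% and 20.8%), 13 and 3 in lamin A/C KO (21% and 18.2%), and 14 and 3 in control muscle (19.5% and 14.3%).

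The other immediate early transcription factors moved less as a list. Of 18 listed, 15 were tested: 2 rose and 3 fell on day 3 against day 0 in emerin KO, 3 and 2 in lamin A/C KO, and 2 and 2 in control muscle. Of all genes, 23.9% rose and 22.2% fell in emerin KO, 23.4% and 19.6% in lamin A/C KO, and 20.1% and 14.2% in control muscle, so these shares were near or below the background. The medians of the list were -0.12, 0.07 and 0.08. Klf6, a Kruppel-like factor, rose by 0.98 ± 0.17 (adjusted p = 4.57e-05) in emerin KO, 1.0 ± 0.15 (adjusted p = 1.14e-05) in lamin A/C KO and 1.07 ± 0.18 (adjusted p = 8.43e-05) in control muscle. Fosl1, which codes for the AP-1 subunit Fra-1, rose by 1.84 ± 0.44 (adjusted p = 0.00155) in emerin KO and 1.32 ± 0.40 (adjusted p = 0.00976) in lamin A/C KO muscle. Myc rose by 1.25 ± 0.23 (adjusted p = 1.06e-04) in lamin A/C KO and 1.69 ± 0.28 (adjusted p = 4.64e-05) in control muscle. Srf itself, the factor that reads CArG boxes, fell, at -0.91 ± 0.27 (adjusted p = 0.00806) in emerin KO and -0.85 ± 0.30 (adjusted p = 0.0281) in control muscle. On day 4 against day 0 the counts were 4 and 4 (all genes 23.5% and 20.8%), 2 and 3 (21% and 18.2%), and 2 and 2 (19.5% and 14.3%).

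Of 15 listed other feedback inhibitors of MAPK signalling, 11 were tested, and they had no common direction. On day 3 against day 0, 1 rose and 4 fell in emerin KO (all genes 23.9% and 22.2%), 2 and 2 in lamin A/C KO (23.4% and 19.6%), and 2 and 2 in control muscle (20.1% and 14.2%). Spred1, which holds back Ras and Raf, rose by 1.81 ± 0.21 (adjusted p = 2.04e-07) in emerin KO, 1.59 ± 0.19 (adjusted p = 3.45e-07) in lamin A/C KO and 1.64 ± 0.23 (adjusted p = 5.83e-06) in control muscle. Dusp16, a phosphatase of JNK and p38, fell, at -0.59 ± 0.23 (adjusted p = 0.0413), -0.88 ± 0.21 (adjusted p = 0.00136) and -1.04 ± 0.25 (adjusted p = 0.00229) in the same genotypes. Dusp10, of the same group, fell too, at -0.80 ± 0.16 (adjusted p = 2.83e-04) in lamin A/C KO and -0.59 ± 0.20 (adjusted p = 0.023) in control muscle. On day 4 against day 0 the counts were 2 and 3 (all genes 23.5% and 20.8%), 2 and 1 (21% and 18.2%), and 1 and 1 (19.5% and 14.3%). Dusp6 and Spred1 thus rose, and Dusp1 and Dusp16 fell, on day 3 in all 3 genotypes.

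Among kinases of the cascade and ETS factors, 23 of 30 listed genes were tested, and falls outnumbered rises. On day 3 against day 0, 2 rose and 11 fell in emerin KO (all genes 23.9% and 22.2%), 4 and 9 in lamin A/C KO (23.4% and 19.6%), and 3 and 8 in control muscle (20.1% and 14.2%). On day 4 the counts were 3 and 11 (all genes 23.5% and 20.8%), 3 and 8 (21% and 18.2%), and 2 and 8 (19.5% and 14.3%). Mapk12, the p38 isoform abundant in skeletal muscle, fell, at -2.96 ± 0.19 (adjusted p = 2.91e-11) in emerin KO, -2.43 ± 0.17 (adjusted p = 1.42e-10) in lamin A/C KO and -2.69 ± 0.20 (adjusted p = 1.60e-09) in control muscle. Map2k6, a kinase that activates p38, fell, at -2.09 ± 0.41 (adjusted p = 2.12e-04), -1.46 ± 0.37 (adjusted p = 0.00255) and -2.37 ± 0.45 (adjusted p = 2.32e-04) in the same order. Nras rose by 1.65 ± 0.14 (adjusted p = 3.27e-09) in emerin KO muscle and Elk3, an ETS partner of serum response factor, by 1.20 ± 0.15 (adjusted p = 9.36e-07) in lamin A/C KO muscle. All 10 mature fibre markers fell in the same 3 comparisons, and the part of that in these falls was not tested.

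Of the 8 tested genes of the stress response that Atf3 belongs to, 1 rose and 1 fell on day 3 against day 0 in each knockout, and 2 rose in control muscle. Of all genes, 23.9% rose and 22.2% fell in emerin KO, 23.4% and 19.6% in lamin A/C KO, and 20.1% and 14.2% in control muscle. These counts were thus near or below the background. Asns, asparagine synthetase, rose by 1.48 ± 0.16 (adjusted p = 1.01e-07) in emerin KO, 1.29 ± 0.14 (adjusted p = 1.78e-07) in lamin A/C KO and 1.70 ± 0.18 (adjusted p = 1.31e-07) in control muscle. Chac1, which degrades glutathione, fell, at -3.04 ± 0.34 (adjusted p = 1.64e-07) in emerin KO and -1.49 ± 0.31 (adjusted p = 3.89e-04) in lamin A/C KO muscle. On day 0 it was higher in emerin KO than in control muscle by 3.08 ± 0.38 (adjusted p = 4.22e-05), where Atf3 was the lower one at -0.54 without a call.

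Against control on the same day, few of the 82 tested genes of these 5 lists were called. In emerin KO muscle on day 3, 3 were higher and 7 lower, where 16.3% of all genes were called. The Kruppel-like factors Klf4 (1.12 ± 0.24, adjusted p = 0.00267) and Klf2 (0.65 ± 0.22, adjusted p = 0.0453) and Nras (0.82 ± 0.14, adjusted p = 5.53e-04) were higher. Lower were Myc (-1.04 ± 0.25, adjusted p = 0.00724), Atf2 (-1.34 ± 0.22, adjusted p = 3.55e-04), which pairs with Jun, Map2k1, the kinase that activates ERK (-0.71 ± 0.13, adjusted p = 9.15e-04), and Rasa1, a brake on Ras (-0.93 ± 0.22, adjusted p = 0.006). Cited2 (-1.31 ± 0.39, adjusted p = 0.0229), Sgk1 (-1.29 ± 0.32, adjusted p = 0.00788) and Socs3 (-0.72 ± 0.23, adjusted p = 0.0318) were lower too. On day 0, 3 were higher and 1 lower in emerin KO muscle: Gadd45g, a growth arrest gene (1.55 ± 0.23, adjusted p = 3.36e-04), Map2k2, another kinase that activates ERK (1.58 ± 0.22, adjusted p = 1.50e-04), and Chac1, given above, were higher and Ets1 (-1.0 ± 0.27, adjusted p = 0.0487) lower. On day 4, Nras (0.54 ± 0.14, adjusted p = 0.0289) and Ppp1r15a (0.60 ± 0.18, adjusted p = 0.0495) were higher and Dusp16 (-0.94 ± 0.23, adjusted p = 0.0207), Atf2 (-0.96 ± 0.22, adjusted p = 0.0157) and Ets2 (-0.59 ± 0.16, adjusted p = 0.0326) lower. Of all genes, 3.26% were called on day 0 and 5.87% on day 4. The high Gapdh ratios given above lie in the emerin KO groups of days 3 and 4, and their part in these differences was not tested. Pim1 in lamin A/C KO muscle was higher on day 0 by 1.95 ± 0.40 (adjusted p = 0.017) and Rps6ka3, a kinase activated by ERK, lower, at -0.74 ± 0.16 (adjusted p = 0.0299). The macrophage sum on day 3 was 46245 to 47805 in emerin KO and 45891 to 46642 in lamin A/C KO muscle, against 40788 to 41423 in control muscle. The mature fibre sum was 55073 to 62834 in emerin KO and 57442 to 67602 in lamin A/C KO muscle, against 65447 to 98246 in control muscle. The fibroblast sum was 52627 to 62224 in emerin KO and 75545 to 90024 in lamin A/C KO muscle, against 84868 to 88405 in control muscle. The neutrophil sum was 2439.7 to 3481 in emerin KO and 2757 to 4755 in lamin A/C KO muscle, against 4363 to 4614 in control muscle. The myoblast sum (28358 to 31634 in emerin KO and 27984 to 33195 in lamin A/C KO muscle, against 27718 to 30317 in control muscle) and the endothelial sum (2999 to 3464 in emerin KO and 3167 to 3651 in lamin A/C KO muscle, against 3183 to 3349.7 in control muscle) overlapped between the knockouts and control. The erythroid sum was 215 to 677 in emerin KO and 231 to 420.2 in lamin A/C KO muscle, against 409.7 to 415 in control muscle. In emerin KO against control muscle on day 3, where 16.3% of all genes were called, limma called 4 of 8 fibroblast markers and 2 of 10 fibre markers lower. Of 10 macrophage markers it called 3 higher and 1 lower, and of 9 myoblast markers 2 in each direction. The part of these lists in the Dusp6 difference of that day was not tested.

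The genes whose signal over the 23 arrays was most like a member's are given by Pearson's r, with no p, since all arrays share the step between day 0 and the later days. Nr4a1 was closest to Cox8b (r = 0.96), Fem1a and Hagh, and Dusp1 to Eola1 (r = 0.91), Cep20 and Suclg1. Junb was closest to Fermt3 (r = 0.96), Tkt and Rhoc, and Dusp6 to Pdlim4 (r = 0.95), Folr2 and Glmp. Atf3 was closest to Nup50 (r = 0.91), Bex1 and Sat1, and Egr2 to Rgs1 (r = 0.83), Mmp12 and Il1rn. Egr1 was closest to Ier3 (r = 0.89), Aplnr and H2-K1, and Fos to a fellow member, Egr1 (r = 0.81), then Atp1b3 and Mov10. The likeness was lower for Jun, closest to Sardh (r = 0.77), Dut and Cd72, and for Fosb, closest to Bex2 (r = 0.73), Baalc and Lce1b. Fos and Egr1 were both higher on control day 0 replicate 2 than on the other control array of that day. This was not particular to them, since that array was the higher of its pair for 7 members.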

How the data were processed

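The authors deposited 1 MAS5 signal (intensity, linear scale) per probe set and array; the tool is named, without a version, in the submitters' processing notes. The trimmed mean (2% off each end) was 150.04 to 150.06 on the deposited arrays, and arrays were rescaled to 500. Of 22690 probe sets, the gene tests left out 64 controls, 691 carrying several symbols and 1555 carrying none. The brightest probe set stood for a gene, and a gene was tested where 2 or more arrays reached a signal of 100. Linear models were fitted to log2(signal + 32) over all 9 groups with limma 3.58.1 (R 4.3.3, trend = TRUE), leaving 14 residual degrees of freedom, and were checked on simulated data. There were 22 comparisons, 3 of them (emerin KO minus lamin A/C KO) added after the levels were seen. Members are named in every comparison, and of each other list up to 4 called genes with the largest difference, from which the text takes examples. Most-like genes are the 3 with the highest Pearson correlation. The members, lists and rules were chosen with earlier results of these data known. Control day 4 replicate 2 was placed by its title. No 2 arrays held identical values. The number of arrays limits precision. Figures were drawn with matplotlib 3.10.9. Alternatives were other scalings, pseudocounts, filters, probe set rules, samples in the fit, the Gapdh ratio, a replicate block and leaving out each array.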

Additional observations from a re-analysis of the deposited data

Results flagged for a closer look

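The change of Dusp6 between day 0 and day 3 differed between emerin KO and control muscle by a test of the difference itself, the interaction term of the fit, at 1.11 ± 0.26 (adjusted p = 0.0234) on the log2 scale, with all 3 emerin KO arrays of day 3 above and both of day 0 below the control arrays of the same day. It was the only member difference of this kind among 4 interactions. The call was lost without any of 5 of the 9 arrays compared, with the Gapdh ratio as a covariate, at 1.19 (adjusted p = 0.238), and with a fit of the compared groups alone, at 1.11 (adjusted p = 0.0946).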

How the results depend on the processing

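Of 42 called differences of members, 24 kept their call with any array left out and 27 under every other setting that could be run. Other scalings moved the median of all genes by up to 0.175 (log2) and reversed none of the 108 member differences recomputed, which are those that were called, had arrays that did not overlap or reached 0.5 (log2); smaller differences are not covered. The setting that changed most was the log2 Gapdh ratio as a covariate. With it, members called numbered 4 in emerin KO, day 3 minus day 0 (7 without it), 3 in lamin A/C KO, day 3 minus day 0 (6), and 6 in emerin KO, day 4 minus day 0 (8). They numbered 0 in emerin KO, day 4 minus day 3, emerin KO minus control, day 3, its change from day 0 to day 3, and emerin KO minus lamin A/C KO, day 3 (1 each), and 2 in emerin KO minus lamin A/C KO, day 0 (1). With the ratio in the fit the sign turned for Junb (-0.42), Egr1 (-0.42) and Nr4a1 (0.51) in emerin KO minus control, day 3, for Nr4a1 in the change to day 3 (0.39) and in emerin KO minus lamin A/C KO, day 3 (0.28), and for Egr1 (-0.10) and Dusp1 (0.030) in emerin KO minus lamin A/C KO, day 4. Without the intensity trend 0 members were called in emerin KO, day 4 minus day 3 and in emerin KO minus lamin A/C KO, day 3. Where a fit held only the groups being compared, which leaves fewer arrays, the counts were 0 in emerin KO, day 4 minus day 3, 2 in emerin KO minus control, day 3, and 0 in its change from day 0 to day 3. The cause of these changed counts was not tested. With each array left out, members called were 3 to 5 in control, day 3 minus day 0. They were 0 to 1 in emerin KO, day 4 minus day 3, in emerin KO minus control on days 0 and 3, in its change to day 4 and in emerin KO minus lamin A/C KO on days 3 and 4. They were 0 to 2 in the emerin KO change to day 3, and 1 to 2 in emerin KO minus lamin A/C KO, day 0. Among these 108 differences, those that changed sign with 1 array left out were Fos (-0.26 to 1.89) and Egr1 (-0.56 to 2.11) in control, day 3 minus day 0, and Fos (-0.15 to 2.0) and Egr1 (-0.41 to 2.25) on day 4. On day 0 in emerin KO minus control they were Fos (-1.64 to 0.51), Junb (-1.14 to 0.11) and Egr1 (-2.15 to 0.51, called at the low end, without control day 0 replicate 1), and in emerin KO minus lamin A/C KO Fos (-1.67 to 0.23). Among interactions they were Fos in emerin KO to day 4 (-0.14 to 2.02) and Egr1 in lamin A/C KO to day 3 (-0.78 to 1.88) and day 4 (-0.69 to 1.97). Without emerin KO day 0 replicate 1 the Junb interaction to day 3 was called (1.87), and without control day 0 replicate 1 those of Egr1 in emerin KO to day 3 (2.67) and day 4 (2.89). The replicate block made calls of Egr2 in lamin A/C KO, day 3 minus day 0, at 0.74 (adjusted p = 0.0264), Fos in lamin A/C KO, day 4 minus day 0, at 1.22 (adjusted p = 0.0486), and Egr2 in control, day 4 minus day 0, at 1.0 (adjusted p = 0.0189), and changed no other member's call. Deviations from group means had a median correlation of 0.024 (-0.30 to 0.39, 82 pairs) between same-numbered arrays of different groups. For differently numbered arrays it was -0.019 (-0.46 to 0.46, 152 pairs). Deviations within a group sum to 0, so the 2 sets of pairs are not independent and their comparison cannot decide whether arrays were paired. A pairing between some groups cannot be told from these values.

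Over all genes, with the Gapdh ratio as a covariate, calls were 2809 (5144 without it) in emerin KO, day 3 minus day 0, 53 (228) in lamin A/C KO and 14 (5) in control, day 4 minus day 3. They were 9 (1820) and 20 (655) in emerin KO minus control on days 3 and 4, 16 (295) and 30 (64) in its changes to days 3 and 4, and 30 (1111) and 13 (1833) in emerin KO minus lamin A/C KO on days 3 and 4. With only the compared groups, they were 42 (131), 380 (228) and 1 (5) in day 4 minus day 3 of emerin KO, lamin A/C KO and control. They were 6 (364), 1197 (1820) and 182 (655) in emerin KO minus control by day. They were 36 (100) and 1 (3) in lamin A/C KO minus control on days 0 and 3, 68 (295) and 2 (64) in emerin KO changes to days 3 and 4, and 279 (703) in emerin KO minus lamin A/C KO, day 0. With arrays scaled to the same median, they were 80 (131), 137 (228) and 1 (5) in day 4 minus day 3 by genotype. They were 389 (655) in emerin KO minus control, day 4, 50 (100) in lamin A/C KO minus control, day 0, and 154 (295), 8 (19) and 7 (23) in the changes of emerin KO to day 3 and lamin A/C KO to days 3 and 4. Without the intensity trend, they were 137 (228), 1 (5), 169 (295), 9 (19) and 11 (23) in day 4 minus day 3 of lamin A/C KO and control and in those 3 changes. The day 3 comparison of lamin A/C KO with control, with 3 genes called, had 7 under quantile normalization and 1 each without the intensity trend, with the replicate block and with the mean of probe sets. With every probe set as its own row, control, day 4 minus day 3 had 1 (5). Without the 5 high-ratio emerin KO arrays, emerin KO day 4 is 1 array, assumed to vary like the other groups, and it had 23 (655) against control, 42 (1833) against lamin A/C KO and 10 (64) in the change.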
